A study of Mus musculus with 192 samples.

Results

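Mouse bone marrow cells with low CD135 that carried more cKit on their surface were compared with those that carried less. The data were UMI counts (counts of unique molecular identifiers, that is of captured mRNA molecules) of 192 single cells labelled as LSK, the lineage-negative, Sca-1-positive, cKit-positive fraction of haematopoietic stem and progenitor cells. The marrow came from C57BL/6 mice, which the labels' protocols give as 8 to 16 weeks old. Cells were enriched on magnetic beads by their cKit, stained, sorted 1 per well into 384-well plates with their antibody signals recorded, and made into libraries in 2 pools of 96 cells. No treatment or other genotype separates the cells compared here, and every cell had already been selected for cKit. In each pool the 48 cells with a CD135 signal below the pool's median were ranked by their cKit signal, and the 24 highest and 24 lowest formed the cKit-higher and the cKit-lower cells. After 1 cell of the cKit-lower side in pool 2 was left out for its low depth, 95 of the 192 cells entered the comparison, 48 of them cKit-higher and 47 cKit-lower.

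Kit, the gene of cKit, encodes the receptor tyrosine kinase for stem cell factor, which the marrow niche supplies to stem cells, progenitors and mast cells. Ligand binding joins 2 receptors, which phosphorylate each other and recruit adaptors, phosphatidylinositol 3-kinase and Src-family kinases, and through these the Ras and STAT5 pathways; phosphatases, ubiquitin ligases and the Spred and Socs proteins restrain the signal. CD135 is Flt3, the receptor that marks progenitors turning towards lymphoid fates, so the CD135-low fraction of LSK holds stem cells and progenitors with myeloid, erythroid and megakaryocytic potential.

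The cKit signal of the cKit-higher cells had a median of 9796 arbitrary units (7661 to 18421) and that of the cKit-lower cells 6452 (1671 to 7866). The sides met closely at the dividing rank, where the last cKit-lower and the first cKit-higher cell had signals of 7625 and 7661 in pool 1 and of 7866 and 8057 in pool 2. The dividing rank thus fell between close signals, and whether either side holds separate populations cannot be told from it. The cKit-higher cells held 1082402 gene UMIs and the cKit-lower cells 827216. Medians per cell were 20730 gene UMIs (12179 to 49372) and 5216 detected genes on the cKit-higher side, against 16549 (3927 to 34137) and 4857 on the cKit-lower side. Spike-in RNA took 2.80% of the UMIs in cKit-higher and 3.50% in cKit-lower cells. Both pools used the same 96 cell indices, so a cell is identified by its pool and index together.

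As no animal is given in the labels, all cells stand for 1 biological sample, and no test was possible. For each side, the UMIs of a gene over all its cells were divided by the side's gene UMIs to give counts per 1000000 (CPM), so more mRNA per cell and more cells with the mRNA cannot be told apart in these sums. Ratios are log2 of the CPM of cKit-higher over cKit-lower cells, so a value above 0 is higher in cKit-higher cells. Their 95% intervals are exact and cover counting error only, not differences between cells or animals. A gene is called higher or lower where it had at least 30 UMIs over both sides, its ratio passed 1.5-fold and its sign was the same in both pools. These calls describe the cells measured. Numbers of cells with a UMI are unthinned unless thinning, which gives each cell the same number of UMIs, is named. The cKit-higher cells had more UMIs per cell, which can raise such numbers on that side.

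The other antibody signals did not stay level between the sides. The median CD150 signal, a stem cell marker, was 97.5 in cKit-higher and 62.2 in cKit-lower cells. Among the 24 cells with the highest CD150 of each whole pool, 25 were cKit-higher (13 and 12 in the pools) and 8 cKit-lower (5 and 3). The CD135 signal had similar medians in pool 1 (281 and 275) and was lower in the cKit-higher cells of pool 2 (222 against 361). Sca-1 ran in opposite directions. Its median was 2094 in cKit-higher against 1071 in cKit-lower cells of pool 1, and 1061 against 1829 in pool 2. Forward scatter, which reports cell size, had medians of 138500 and 130000. A signal above 2000 for CD127, the interleukin-7 receptor of lymphoid progenitors, occurred in 0 cKit-higher and 5 cKit-lower cells.

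**Figure D1:**
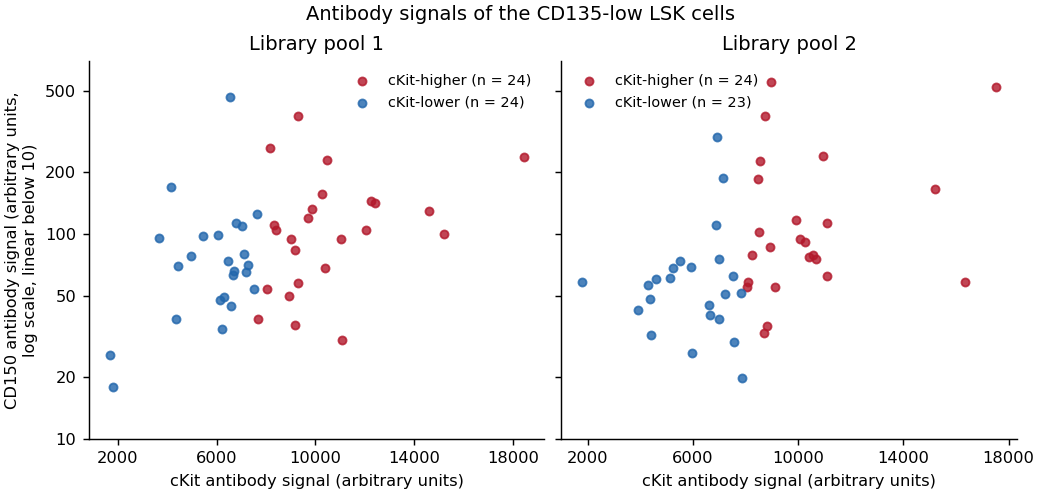
The CD150 signal (vertical, log scale, arbitrary units) is plotted against the cKit signal (horizontal, arbitrary units) for each of the 95 CD135-low cells, 1 panel per library pool, with cKit-higher cells in red and cKit-lower cells in blue. In both pools the median CD150 signal is higher among the red points, 97.5 against 62.2 over both, and the colours meet without a gap at the dividing rank.

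Over all genes, the 2 pools shared little of their ratios. Of 8270 genes with at least 30 UMIs, 673 (8.14%) were called higher and 547 (6.61%) lower in cKit-higher cells, around a median log2 ratio of 0.01. Both pools gave the same sign for 49.8% of the 8270 genes. Among the 869 genes whose interval excluded 0 in pool 1, 51.4% had the same sign in pool 2, and of the 954 such genes of pool 2, 50.2% had the same sign in pool 1. A ratio in 1 pool thus said little about the direction in the other. The percentages of called genes are the background against which each list below is read.

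Kit mRNA, the check of the sorted protein, was 1.19-fold in cKit-higher over cKit-lower cells, which is not past 1.5-fold. Kit (chr5:75574916-75656722, plus strand, GRCm38) had 540 CPM in cKit-higher and 455 CPM in cKit-lower cells, from 584 and 376 UMIs. Per cell, its level ran from 182 to 2110 CPM with a median of 507 in cKit-higher cells, and from 0 to 1334 with a median of 424 in cKit-lower cells. The 2 ranges overlapped from 182 to 1334 CPM, and 48 of 48 and 46 of 47 cells held a Kit UMI. The log2 ratio was 0.25 (0.06 to 0.44), with 0.36 in pool 1 and 0.12 in pool 2. It was 0.00 when cells were split within neighbours in Sca-1 rank, and 0.58 without the cells of the 24 highest CD150 signals.

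Of the other markers of CD135-low cells, Zfpm1 was called higher in cKit-higher cells, and Muc13 and Hlf were not called. All 4 markers were present, with a UMI in 98.9% (Kit), 68.4% (Zfpm1), 80.0% (Muc13) and 94.7% (Hlf) of the 95 cells. Kit, Zfpm1 and Muc13 were more abundant than in the 96 cells with higher CD135, with 503 against 336 CPM, 90.6 against 29.5 CPM and 211 against 64.6 CPM, while Hlf had 619 and 602 CPM. Zfpm1 (chr8:122282141-122337251, plus strand) encodes FOG1, the cofactor of the GATA factors in erythroid and megakaryocytic cells. It had 111 CPM in cKit-higher and 64.1 CPM in cKit-lower cells, a log2 ratio of 0.79 (0.31 to 1.29), with 0.42 and 1.13 in the pools. Its UMIs were seen in 38 of 48 and 27 of 47 cells, and after each cell was thinned to 12159 UMIs, which left out 10 cKit-lower cells and 0 cKit-higher cells, in 32 of 48 and 18 of 37. Per cell the medians were 78.7 CPM (0 to 357) and 52.3 CPM (0 to 287), so many cells of both sides held similar amounts. When the cells were split within neighbours in CD150 rank, the ratio was 0.14, and within neighbours in CD135 rank 0.28, both under 1.5-fold. Muc13 (chr16:33794037-33819934, plus strand), a transmembrane mucin, had a ratio of 0.05 (-0.25 to 0.34). Its ratio depended on the split: it was 0.43 within neighbours in CD150 rank, 0.40 to 0.49 within neighbours in the other 3 signals, 0.63, past 1.5-fold, without the 24 highest CD150 cells of each pool, and -0.19 after thinning. Hlf (chr11:90336536-90390895, minus strand), a transcription factor of stem cells, had 0.33 in pool 1 and -0.98 in pool 2, and the intervals of the 2 pools both excluded 0. Over the list of 13 genes of the CD135-low side, which was chosen with results of these data known and is no independent evidence, 11 ratios were above 0, 4 (30.8%, background 8.14%) were called higher (Sdsl, Slc18a2, Tgfbr3 and Zfpm1) and 0 lower. The list's median was 0.47 (0.08 in pool 1 and 0.94 in pool 2), and 0.14 within neighbours in CD150 rank.

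**Figure D2:**
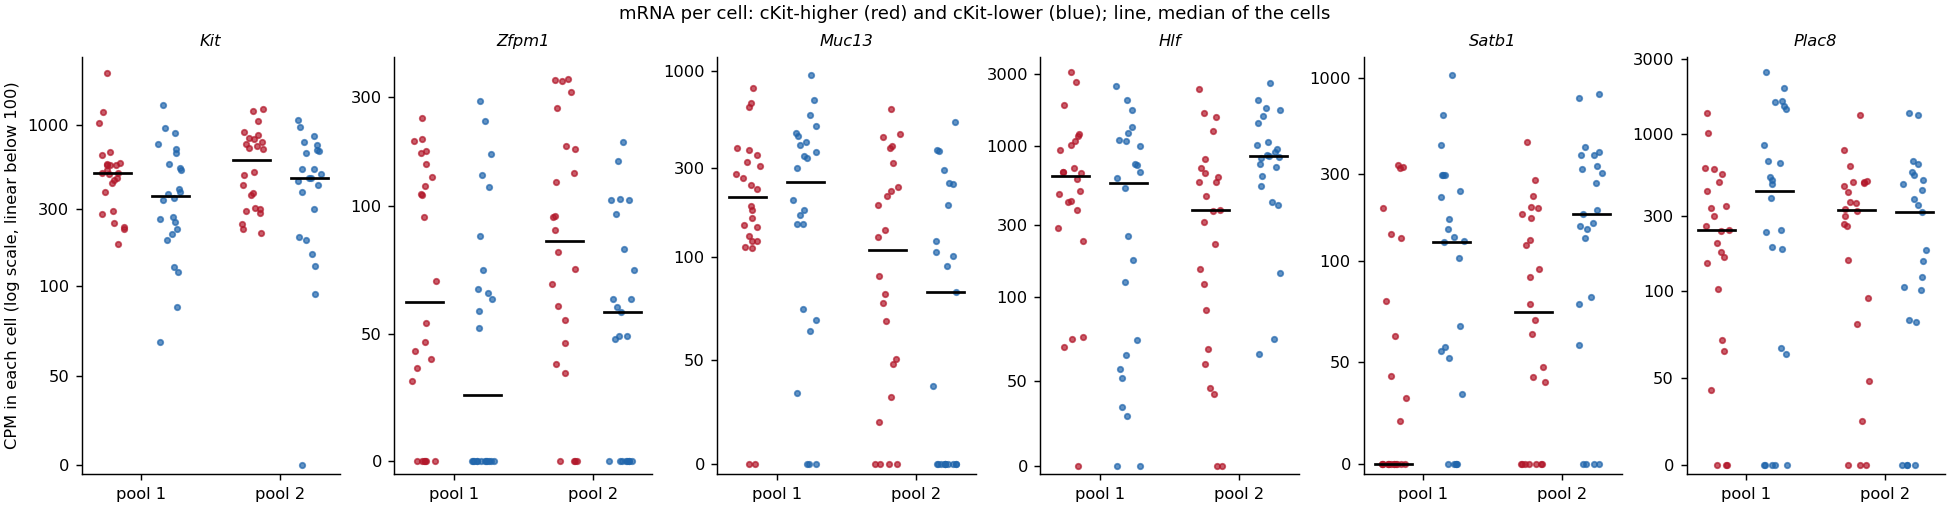
Each point is 1 cell, with its CPM on the vertical axis (log scale, linear below 100), by pool and side (cKit-higher red, cKit-lower blue), and the black lines are medians over cells. Kit has overlapping ranges on both sides (medians 507 and 424 CPM over both pools), the Hlf medians change order between the pools, and Satb1 has its lower medians on the cKit-higher side in both.

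Genes of the late cell cycle had the largest median of the lists in the direction of cKit-higher cells, and part of the difference lay in 1 cell. The list held 29 genes that act in G2 and mitosis, among them cyclins, spindle motors and condensins. Of 26 with at least 30 UMIs, 19 (73.1%, background 8.14%) were called higher and 0 lower, with a median log2 ratio of 0.95 (0.91 in pool 1 and 1.44 in pool 2). The summed level was 2177 CPM in cKit-higher and 1295 CPM in cKit-lower cells. A cKit-higher cell of pool 1 held 597 of the 2356 UMIs on its side, and the next cell 283. Without that cell the sum was 1690 CPM, the median 0.47, 20 of 22 ratios were above 0, and 5 of 22 members were called higher (Anln, Cdca8, Prc1, Smc2 and Tpx2). For 16 of the 26 members a single cell held over 20% of the UMIs.

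Cell by cell, the sides differed less. The list's level had a median of 944 CPM (64.0 to 14288) in cKit-higher and 690 CPM (0 to 6160) in cKit-lower cells, and the medians were 657 against 718 in pool 1 and 993 against 690 in pool 2. A level above 2000 CPM was reached by 8 of 48 cKit-higher cells (16.7%, 7.48% to 30.2%, exact Clopper-Pearson interval) and 6 of 47 cKit-lower cells (12.8%, 4.83% to 25.7%). A level above 5000 CPM was reached by 3 and 1. The intervals of these shares overlapped widely, and the sums differed most in what the few top cells held. The cKit-higher cells also had more UMIs per cell. Thinning gave every cell the same number of UMIs and left out 10 cKit-lower and 0 cKit-higher cells. The list's median log2 ratio was then 0.37, and 0.39 when the cells were split within neighbours in CD150 rank. Depth, the weight of single cells and the cells left out changed together in thinning. Their part in the result, and that of CD150, was not tested.

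Among the members, Top2a (topoisomerase II alpha, which untangles chromosomes, chr11:98992943-99024189, minus strand) had 298 CPM in cKit-higher and 184 CPM in cKit-lower cells, a log2 ratio of 0.70 (0.41 to 0.98). Mki67, the proliferation marker Ki-67, had 201 and 127 CPM, a ratio of 0.66 (0.32 to 1.01), with 0.24 and 1.86 in the pools. Without the cell with the most UMIs of the list, neither Top2a nor Mki67 was called. Smc2, a condensin subunit, had 153 and 81.0 CPM, a ratio of 0.92 (0.50 to 1.35), and was detected in 30 of 48 and 29 of 47 cells. Its partner Smc4 had 0.35 (0.09 to 0.61) and was not called. Bub1b, a spindle checkpoint kinase, had 2.07 in pool 1 and -0.14 in pool 2. Among 29 S-phase genes the calls were near the background, with 3 (10.3%, background 8.14%) called higher (Prim1, Tyms and Clspn) and 1 (3.45%, background 6.61%) lower (Cdc6). Their median was 0.16, and it was -0.02 after thinning. Myc had 288 and 196 CPM, a ratio of 0.56 (0.28 to 0.84) just under 1.5-fold, with 0.51 and 0.56 in the pools, and 45 of 48 cKit-higher against 34 of 47 cKit-lower cells held a UMI of it.

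Some promoters of this list hold letters that are known from late cell cycle genes, the CCAAT box bound by NF-Y and the cell cycle genes homology region (CHR, letters TTTGAA) bound by the MuvB complexes. The promoters of 4 called members are shown, whether or not they hold these letters. These have the most UMIs among called members of which no cell held over 20%. Without the cell with the most UMIs of the list, only Smc2 of the 4 was still called. Each run is the 250 bases before the first RefSeq start (GRCm38.p6), on the gene's strand from 5′ to 3′, with CHR and CCAAT letters of either strand in capitals. They are chr11:99024190-99024439 (minus), chr7:135716380-135716629 (minus), chr4:52438971-52439220 (plus) and chr19:34922108-34922357 (plus). Bases shortly after the start taken were found near the 5′ end of a GENCODE M21 transcript for Top2a, Mki67 and Kif20b. For Smc2 they were not.
Top2a: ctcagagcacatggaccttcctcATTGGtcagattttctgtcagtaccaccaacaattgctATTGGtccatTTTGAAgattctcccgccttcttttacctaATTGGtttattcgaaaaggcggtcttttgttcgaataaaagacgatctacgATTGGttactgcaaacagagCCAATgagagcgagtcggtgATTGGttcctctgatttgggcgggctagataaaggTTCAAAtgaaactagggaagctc
Mki67: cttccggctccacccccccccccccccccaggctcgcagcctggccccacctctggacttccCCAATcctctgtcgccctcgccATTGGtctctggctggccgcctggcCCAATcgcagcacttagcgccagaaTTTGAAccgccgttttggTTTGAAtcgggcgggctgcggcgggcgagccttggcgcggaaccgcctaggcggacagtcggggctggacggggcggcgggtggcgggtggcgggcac
Smc2: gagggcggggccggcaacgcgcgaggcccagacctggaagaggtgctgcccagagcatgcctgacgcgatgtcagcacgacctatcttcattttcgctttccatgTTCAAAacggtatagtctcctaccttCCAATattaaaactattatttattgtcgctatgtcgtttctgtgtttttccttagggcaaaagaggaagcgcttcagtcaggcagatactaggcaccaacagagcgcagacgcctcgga
Kif20b: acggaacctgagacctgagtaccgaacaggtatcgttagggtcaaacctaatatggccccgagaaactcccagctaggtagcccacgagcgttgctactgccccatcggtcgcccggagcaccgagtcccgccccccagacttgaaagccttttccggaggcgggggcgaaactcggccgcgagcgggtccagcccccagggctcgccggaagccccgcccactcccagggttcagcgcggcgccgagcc
Top2a has 2 CHR and 6 CCAAT matches, Mki67 2 and 3, Smc2 1 and 1, and Kif20b, a kinesin of cytokinesis, 0 and 0. Of the 22 measured list members with a promoter sequence, 17 (77.3%) held CCAAT and 8 (36.4%) TTTGAA, on either strand. Among all 5988 genes with at least 30 UMIs and a promoter sequence the shares were 36.5% and 10.2%, and both letters together occurred in 36.4% of the members and 3.94% of all. A match is a description of letters, not evidence of binding, and the list was not chosen on these promoters.

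Outside the cell cycle list, the 12 genes per direction with the counting interval farthest from 0 were taken. They came from genes with at least 50 UMIs, the same sign in both pools and no cell above 20% of the UMIs. Predicted, pseudogene, ribosomal protein and mitochondrial symbols were left out. Since the same sign was a condition of entry, a shared sign of the pools is no separate evidence for these genes. Those higher in cKit-higher cells had few UMIs each. Brca2 (chr5:150522630-150570329, plus strand), which acts in homologous recombination, had 133 UMIs in cKit-higher and 25 in cKit-lower cells, or 123 and 30.2 CPM. Per cell its medians were 53.0 CPM (0 to 533) and 0 CPM (0 to 318), with a UMI in 27 of 48 and 16 of 47 cells. The sides overlapped, and the cKit-lower side had more cells at 0. The log2 ratio was 2.02 (1.40 to 2.70), with 1.73 and 3.11 in the pools. It was 0.85 within neighbours in CD150 rank and 1.20 within neighbours in CD135 rank. Mms22l, a repair factor of stalled replication forks, had a ratio of 1.64 (0.80 to 2.56), but -0.03 within neighbours in CD150 rank. Prkch (chr12:73584796-73778185, plus strand), protein kinase C eta, had 42.5 and 12.1 CPM, a ratio of 1.81 (0.81 to 2.97), with 1.76 and 1.82 in the pools and a UMI in 26 of 48 and 8 of 47 cells. Lrrc8c, a subunit of the volume-regulated anion channel, had 51.7 and 16.9 CPM, a ratio of 1.61 (0.75 to 2.57), and was seen in 31 and 11 cells. The cell numbers of Prkch and Lrrc8c are before thinning. Pus10 (a pseudouridine synthase), Brf1 (a subunit of the RNA polymerase III factor TFIIIB), Riox2 (a ribosomal oxygenase), Sdsl (serine dehydratase-like), Plscr1 (a phospholipid scramblase) and Slfn9 (of the Schlafen family) had ratios from 1.32 to 1.90. Mfsd2b, the sphingosine 1-phosphate exporter of red cells and platelets, had 1.74 over both pools, from 0.18 in pool 1 and 3.20 in pool 2, and -0.31 within neighbours in CD150 rank.

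The genes lower in cKit-higher cells were led by Satb1 (chr17:51736187-51833290, minus strand), a chromatin organiser that acts in lymphoid specification. It had 75.8 CPM in cKit-higher and 218 CPM in cKit-lower cells, from 82 and 180 UMIs. Per cell the medians were 42.9 CPM (0 to 451) and 150 CPM (0 to 1048), with a UMI in 28 of 48 and 38 of 47 cells, or 25 of 48 and 27 of 37 after thinning. The cKit-higher cells therefore more often had 0, and the highest cells were cKit-lower. The log2 ratio was -1.52 (-1.92 to -1.14), with -1.72 and -1.46 in the pools, and no cell held more than 6.49% of the UMIs. It was -0.69 within neighbours in CD150 rank, and -1.15 within neighbours in CD135 rank. Plac8 (chr5:100553725-100572245, minus strand), a gene of myeloid and lymphoid progenitors, had 303 and 578 CPM, a ratio of -0.93 (-1.14 to -0.73), with per-cell medians of 283 and 351 CPM and values up to 1343 and 2456. Cpa3 (chr3:20215620-20242181, minus strand), a carboxypeptidase of mast cells and their progenitors, had 74.8 and 214 CPM, a ratio of -1.52 (-1.91 to -1.13), although more cKit-higher than cKit-lower cells held a UMI of it (25 of 48 against 18 of 47). Its excess lay in a few cKit-lower cells with up to 2195 CPM. Lmo4, a LIM-only cofactor, had a UMI in 38 of 48 and 40 of 47 cells. Its ratio of -1.16 was -0.77 without the cell with its most UMIs. Procr (chr2:155751117-155755471, plus strand), the stem cell marker EPCR, had 16 and 35 UMIs, a ratio of -1.52 (-2.47 to -0.63). Pik3cd, Rnf5, Ccl4, St8sia4, Ids and Ltb had ratios from -1.43 to -0.98, of which Ltb, lymphotoxin beta, had -0.16 within neighbours in forward scatter.

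**Figure D3:**
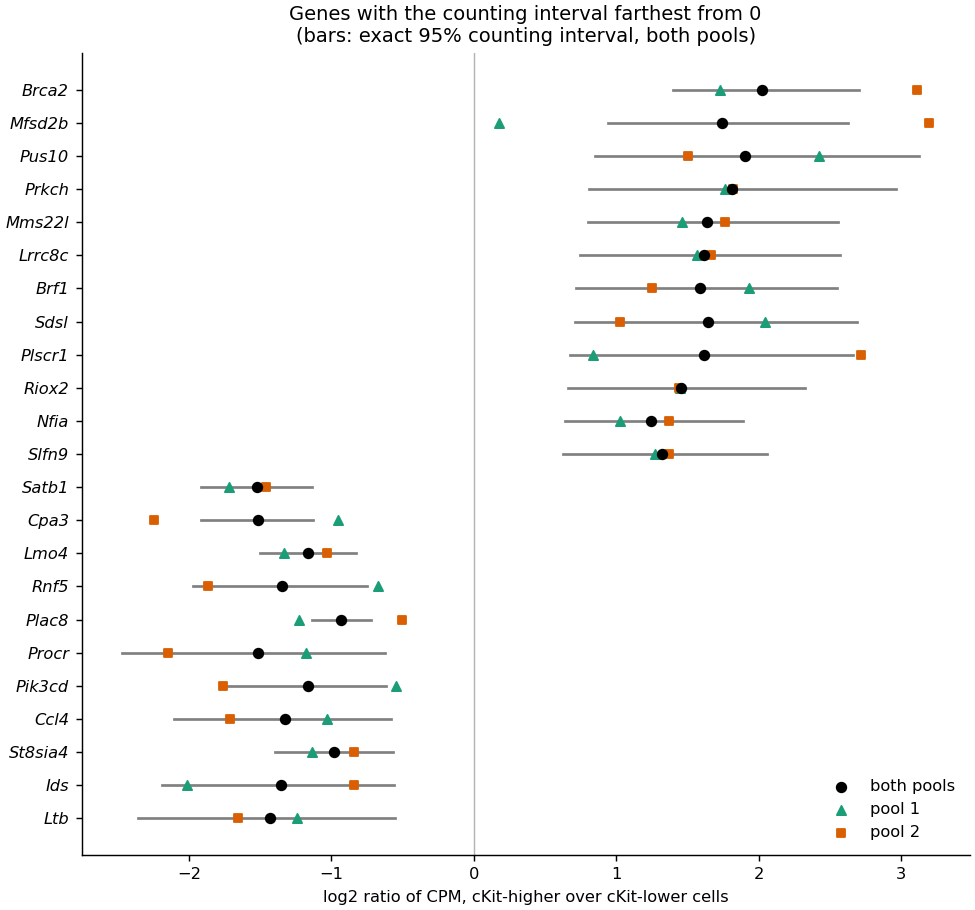
For 23 of the 24 genes with the interval farthest from 0, black points give the log2 ratio over both pools (horizontal, cKit-higher over cKit-lower) with the exact 95% counting interval as a bar, triangles pool 1 and squares pool 2. The same sign in both pools was a condition for these genes. The pools have close values for Prkch (1.76 and 1.82) and differ widely for Mfsd2b (0.18 and 3.20).

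The median ratio size of these 24 genes was smaller within neighbours in CD150 than within neighbours in the other 3 signals, although single genes differed in this. It was 1.49 in the split by cKit alone. When cKit was ranked within blocks of 4 cells of neighbouring CD150, 20 of the 95 cells changed side, the 24 highest-CD150 cells of each pool lay evenly on the sides (17 and 16), and the median size was 0.68. Blocks of neighbouring CD135, Sca-1 and forward scatter moved 16 cells each and gave 1.16, 1.05 and 0.90. Since the 24 genes were chosen on the first split, any other split can be smaller; 22 of 24 kept their sign in the CD150 blocks, and 24 of 24 in each of the others. Prkch had 1.02 within neighbours in CD150 and 0.69 within neighbours in forward scatter. Leaving out the 24 highest CD150 cells of each pool moved their median size less than the CD150 blocks, to 1.18, and 24 of 24 kept their sign. Prkch then had 2.00, Lrrc8c 1.81, Cpa3 -1.53 and Lmo4 -1.19.

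Regulators of erythroid and megakaryocytic fate lay slightly to the cKit-higher side. Of 19 measured members, 15 had a ratio above 0, 4 (21.1%, background 8.14%) were called higher and 0 lower, with a median of 0.17 (0.21 and 0.17 in the pools). Per cell the list's level was 2986 CPM (1608 to 5402) in cKit-higher and 2575 CPM (791 to 4329) in cKit-lower cells. The called members were Zfpm1, Nfia, Gata1 and Gfi1b. Nfia (chr4:97772734-98118874, plus strand), a transcription factor that promotes erythroid fate, had 85.9 and 36.3 CPM, a ratio of 1.24 (0.64 to 1.89), with 1.02 and 1.37 in the pools and 0.52 within neighbours in CD150 rank. Gata1, the master factor of red cells and platelets, had 31 and 8 UMIs, of which 1 cell held 28.2%, and Gfi1b, a repressor of the same lineages, had 30 and 11. The abundant members lay close to equal. Lmo2, a scaffold of the stem and erythroid complex, had 0.17 (-0.01 to 0.35), Cbfa2t3, a corepressor, -0.05 (-0.28 to 0.18), Runx1 -0.22 (-0.51 to 0.06) and Gata2 0.31 (-0.03 to 0.65). Of 22 listed megakaryocyte genes, 9 had at least 30 UMIs, of which 2 (22.2%, background 8.14%) were called higher and 0 lower. The 2 were Plek (pleckstrin of platelets, 0.60) and Slc18a2 (a vesicular monoamine transporter, 0.59).

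Genes of the mature erythroid line had opposite directions in the pools. The median of 15 was -0.43 in pool 1 and 2.09 in pool 2, with 2 (13.3%, background 8.14%) called higher, Aqp1 and Car1, and 2 (13.3%, background 6.61%) called lower, Hba-a1 and Hba-a2. The latter are near-identical alpha globin genes with 51.4% and 45.5% of their UMIs in 1 cell, and had ratios of -3.89 and -3.71. Car1, a carbonic anhydrase of red cell precursors, had 657 and 77 UMIs, a ratio of 2.71 (2.36 to 3.07), but 31.9% of its UMIs lay in 1 cell, and 20 of 48 and 19 of 47 cells held it. In 8 of the 15 a single cell held over 20% of the UMIs, so this difference describes few cells, and over the other 7 members the median was -0.04 with 0 called.

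Lymphoid-priming genes lay to the cKit-lower side. Of 14 measured members, 6 (42.9%, background 6.61%) were called lower and 0 higher, with a median of -0.39 (-0.37 and -0.65). Per cell the level was 1411 CPM (586 to 3295) in cKit-higher and 1890 CPM (330 to 5629) in cKit-lower cells, and 1284 against 1437 and 1588 against 2160 in the pools. The called members were Satb1, Cd53 (a tetraspanin of leukocytes), Dntt (terminal transferase, which adds bases at antigen receptor junctions), Ighm (the immunoglobulin mu chain), Cd52 and Lck (the T-cell kinase). Cd53 had 84.1 and 161 CPM, a ratio of -0.94 (-1.34 to -0.54), spread over 32 and 40 cells. Dntt had -1.68 (-2.18 to -1.20), with 22.7% of its UMIs in 1 cell. Ighm and Cd52 likewise had 36.4% and 23.7% in 1 cell, and over the 11 members not held by 1 cell the median was -0.36, with 3 called lower. The abundant regulators stayed near equal, Bcl11a with 0.11 (-0.11 to 0.34), Mef2c with 0.00 (-0.30 to 0.30) and Ikzf1, or Ikaros, with 0.12 (-0.18 to 0.44). Flt3 itself had -0.36 (-0.70 to -0.01), with 0.27 and -0.88 in the pools, in the same order as the CD135 signals of pool 2. The list's median was -0.41 without the 5 cells with high CD127, -0.65 within neighbours in CD135 rank, -0.16 within neighbours in CD150 rank and -0.09 without the cells of the 24 highest CD150 signals.

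Granulocyte-monocyte genes also lay to the cKit-lower side, most in pool 1. Of 19 measured members, 7 (36.8%, background 6.61%) were called lower and 0 higher, with a median of -0.93 (-0.86 and -0.40). They were Plac8, Prtn3 (proteinase 3), Irf8 and Gfi1 (factors of the monocyte and neutrophil lines), Clec12a (a myeloid lectin), Csf2rb (the shared receptor chain of GM-CSF and interleukins) and Ncf1 (a subunit of the phagocyte oxidase). Prtn3 had 160 and 273 CPM, a ratio of -0.77 (-1.07 to -0.48), and was seen in 44 of 48 and 38 of 47 cells. Mpo, myeloperoxidase of granulocyte progenitors, had 147 and 531 CPM but ran from -2.45 in pool 1 to 0.16 in pool 2, and 20.2% of its UMIs lay in 1 cell. Calr had -0.38 (-0.56 to -0.19) and Cd34 -0.07 (-0.28 to 0.15). The list's level per cell had near medians, 2178 CPM (405 to 10746) and 2332 CPM (343 to 15468), so the sums differed most in a few cKit-lower cells at the top. Without the cell with the most UMIs of this list the median was -0.84 and the same number, 7, was called. Without the cells of the 24 highest CD150 signals it was -0.39, and over the 14 members not held by 1 cell -0.38, with 5 called lower.

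**Figure D4:**
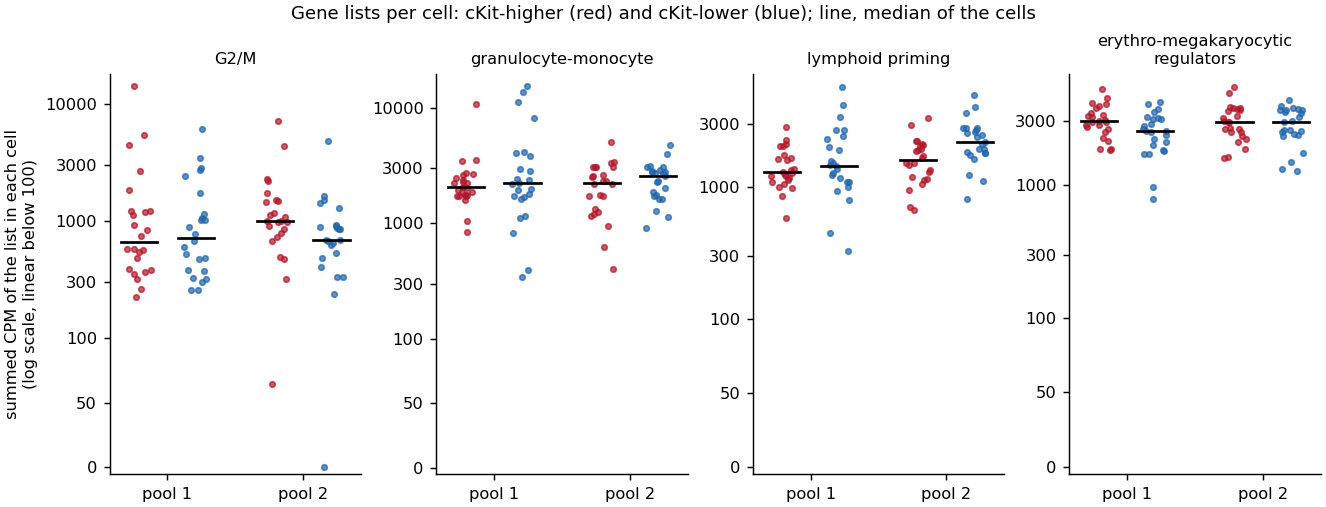
Points are cells, with the summed CPM of 4 gene lists on the vertical axis (log scale, linear below 100), by pool and side (cKit-higher red, cKit-lower blue), and black lines are medians over cells. The lymphoid list has its lower median on the cKit-higher side in both pools (1284 against 1437 CPM and 1588 against 2160 CPM), while the highest G2/M cell (14288 CPM) is a cKit-higher cell of pool 1, and the G2/M medians are 657 against 718 CPM in pool 1 and 993 against 690 CPM in pool 2.

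Genes of the Kit pathway itself were split in both directions. Of 42 measured members, 5 (11.9%) were called higher and 6 (14.3%) lower, against 8.14% and 6.61% of all genes, with a median of -0.08. Kitl, the ligand, had 0 and 1 UMI. Among the kinases and adaptors, Lyn (a Src-family kinase) had 62.8 and 36.3 CPM, a ratio of 0.79 (0.15 to 1.46), Sos1 (the Ras exchange factor) 0.67 (0.07 to 1.30), Map2k2 0.60 (0.04 to 1.17) and Stat5b 0.78 (0.20 to 1.38). Pik3cd, the leukocyte PI3-kinase catalytic subunit, ran the other way with 41.6 and 93.1 CPM, a ratio of -1.16 (-1.73 to -0.61), as did Hras, Map2k1 and Plcg1. The abundant adaptor Grb2 had -0.06 (-0.35 to 0.23), the regulatory subunit Pik3r1 -0.05 (-0.37 to 0.27) and Akt1 -0.07 (-0.41 to 0.27). Among the inhibitors, Spred1 was higher with 0.85 (0.35 to 1.38), Dok2 and Socs6 were lower, Dok2 with -1.28 (-2.14 to -0.45), and Cbl and Ptpn6 had -0.11 and -0.30, neither of them called. The called pathway members are named after their values were seen.

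Stem cell genes gave no common direction. Of 22 measured members, 2 (9.09%, background 8.14%) were called higher (Esam and Prdm16) and 2 (9.09%, background 6.61%) lower (Ifitm1 and Procr), both near the background. The list's median was 0.31 in pool 1 and -0.30 in pool 2. Adgrg1 had 0.15 (-0.02 to 0.31) and Angpt1 0.11 (-0.05 to 0.28), while Meis1 had 0.86 and -0.14 in the pools. Ifitm1 had 220 and 376 CPM, a ratio of -0.77 (-1.02 to -0.53). Slamf1, the gene of CD150, had 6 and 8 UMIs and Ly6a, the gene of Sca-1, 43 and 36, with 0.76 and -1.25 in the pools, the same orders as the Sca-1 signals there. Genes with at least 30 UMIs and no cell above 20% of them were searched for opposite pools, without predicted, pseudogene, ribosomal protein and mitochondrial symbols. Among these, 41 had intervals that excluded 0 in opposite directions in the pools. The search started from 8270 genes, and how many its other filters left was not counted. Genes with both intervals on the same side of 0 were not counted either, so the 41 have no background. Of the 41, 30 were higher in the cKit-higher cells of pool 1 and lower in those of pool 2. Hlf, B2m (0.18 and -0.49) and Irf9 (1.42 and -0.96) were among these 30. Dach1, the transcription factor that the study's title names, had -0.03 in pool 1 and 1.49 in pool 2, and 44 of 48 against 28 of 47 cells held a UMI of it.

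**Figure D5:**
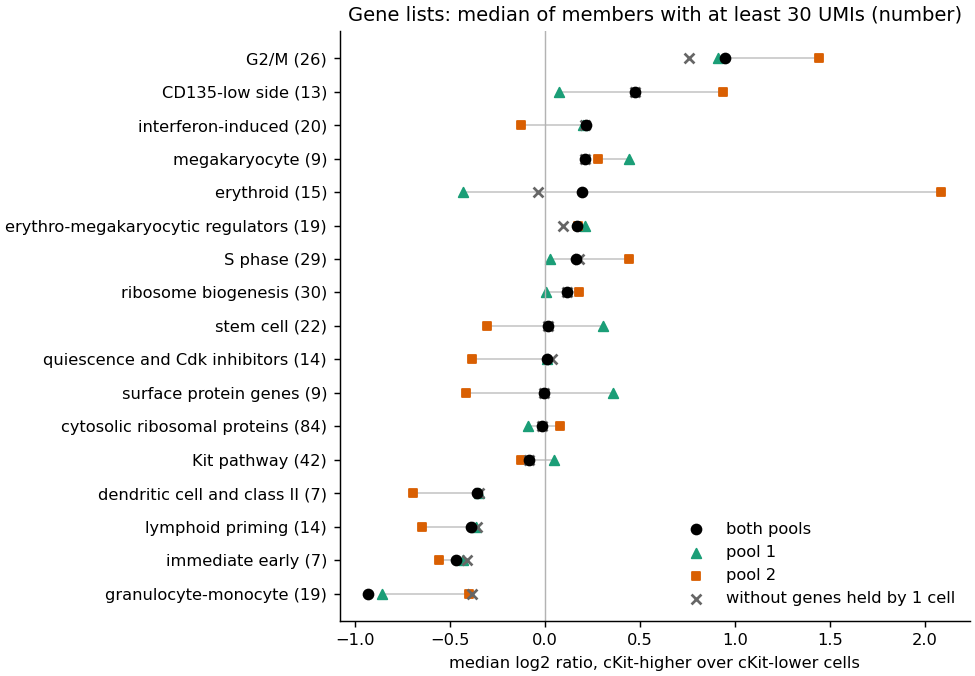
The median log2 ratio of each gene list (horizontal, cKit-higher over cKit-lower) is shown over both pools (circles), in pool 1 (triangles), in pool 2 (squares) and without genes of which 1 cell holds over 20% (crosses), with the number of measured members in brackets. Among lists with at least 7 measured members, the G2/M list lies highest (0.95, or 0.76 without such genes), the granulocyte-monocyte list lowest (-0.93, or -0.38), and the erythroid list spans from -0.43 to 2.09 between the pools.

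Some markers of other cell types lay mostly in single cells, and others were spread over many cells. B-cell markers had 24 and 194 UMIs, of which 177 lay in 1 cKit-lower cell of pool 1 with a CD127 signal of 29635, and without it 22.2 and 21.4 CPM were left. Trbc1, a constant chain of the T-cell receptor, had 0 and 63 UMIs, 34 of them in 1 cell, while Cd3d, Cd3e and Gzma were at 0. Nkg7 and Klrb1c together had 79 and 52 UMIs in 32 and 22 cells, with at most 8 in 1 cell. Dendritic cell markers had 77 and 89 UMIs in 31 and 27 cells. Erythroid markers had 728 and 118 UMIs in 29 and 26 cells, 253 of them in 1 cKit-higher cell of pool 2. Of 8 mast cell and basophil markers, 4 were at 0 (Cma1, Fcer1a, Prss34 and Tpsb2), and the others summed to 89 and 223 UMIs, mostly from Cpa3. Neutrophil markers had 4 and 2 UMIs. Without that B-cell-marker cell the lymphoid-priming median was -0.42, beside -0.39 with it.

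The same split by rank among the 96 cells with higher CD135 gave the same direction for some lists and another for others. In both pools its dividing rank lay at a lower cKit signal than among the CD135-low cells. The sides of the 2 splits therefore do not cover the same cKit signals. Among the cells with higher CD135, 653 of 7893 genes (8.27%) were called higher and 474 (6.01%) lower. Kit had a log2 ratio of 0.41 (0.18 to 0.65) in those cells, beside 0.25 in the CD135-low cells. Muc13 had 1.55 (0.92 to 2.21) beside 0.05, and Hlf 0.89 (0.71 to 1.08) beside -0.27. Satb1 had -0.13 (-0.34 to 0.08) beside -1.52, Brca2 0.50 (-0.10 to 1.12) beside 2.02, and Top2a -0.45 (-0.76 to -0.15) beside 0.70. List medians were -0.31 for G2/M, -0.06 for granulocyte-monocyte and -0.56 for lymphoid-priming genes. The same sign as in CD135-low cells was also found for the CD135-low side (0.75 beside 0.47) and erythro-megakaryocytic regulators (0.19 beside 0.17). It was found too for megakaryocyte (0.36 beside 0.21) and immediate early genes (-0.82 beside -0.47). Lists with the other sign included interferon-induced (-0.07 beside 0.21), erythroid (-0.0036 beside 0.19) and Kit pathway genes (0.03 beside -0.08). The differences between the 2 splits were not tested.

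Along 4 steps of the cKit signal of 24 cells each (23 in the lowest), chosen as a display after the data were seen, the values did not all change evenly. From the lowest to the highest step Kit had 385, 512, 554 and 526 CPM, so its low level lay in the lowest step. Satb1 had 239, 200, 71.9 and 79.2 CPM and Brca2 26.6, 33.3, 81.6 and 160 CPM. Cpa3 had 404, 55.4, 58.3 and 89.8 CPM and Lmo4 431, 88.7, 97.2 and 120 CPM, so their excess was in the lowest step. The granulocyte-monocyte list had 4434, 2683, 1868 and 2357 CPM, the lymphoid list 2371, 1785, 1485 and 1442 CPM, and the G2/M list 1545, 1086, 1347 and 2928 CPM.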

How the data were processed

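The authors deposited raw UMI counts per gene and cell for 192 cells. Libraries followed an adapted CEL-seq2 protocol with poly(A) priming, 8-base cell indices and 6-base UMIs, per the labels' protocols. No source used here names the aligner or counter. The submitters' processing notes name GRCh38, a human build, while all gene identifiers are mouse, so the build used is not known; symbols came from the reference tables for 20530 of 20764 genes, and coordinates from GENCODE M21 (GRCm38) by identifier.

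Cells under 20% of their pool's median gene UMIs (1 cell with 708 gene UMIs) were left out after ranking, and the 71 spike-ins stayed out of totals. Doublets were not called, as cells were sorted singly. Ratios have exact conditional binomial intervals, and sides with 0 UMIs were set at a floor of 3. Ratios rest on genes with at least 30 UMIs. Named genes were the 12 per direction described in the results (1 of the 24 is not reported here), the 4 markers, Dach1, Flt3, Slamf1, Ly6a, Gata2 and, for each list described, up to 4 of its most abundant members; called list members beyond these were named after their values were seen. There were 23 lists. The members and lists were chosen with earlier results of these data known. Hba-a1 and Hba-a2 share sequence. Alternatives changed depth, filters, weighting, pools, blocks of neighbouring signals and single cells. Calculations used Python 3.11.15, numpy 2.4.6, pandas 2.3.3 and scipy 1.17.1, and the scripts were tested on simulated data.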

Additional observations from a re-analysis of the deposited data

How the results depend on the processing

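Of the 24 genes with intervals farthest from 0, 22 kept their sign under all 18 alternatives. Those of pool 1 alone and pool 2 alone could not change a sign, since the same sign in both pools was a condition of entry. The other 2 genes changed sign within neighbours in CD150 rank (Mfsd2b -0.31, Mms22l -0.026). Of 432 values, 381 stayed within the main interval, 49 moved and 2 reversed. Genes called higher numbered 673, and 1217 with at least 10 UMIs, 112 with at least 100, 440 after thinning, 1300 in pool 1, 1334 in pool 2 and 403 without the cell with most UMIs of each gene. Genes called lower numbered 547, and 1052, 68, 1034 in pool 1 and 1238 in pool 2. The single-pool counts lack the condition of a shared sign. The G2/M median of 0.95 was 0.37 after thinning, 0.39 within neighbours in CD150 rank, 1.44 in pool 2, 1.43 without cells with CD127 above 2000, and 0.47 without the cell with most UMIs of the list or of each gene. The stem cell median of 0.02 was 0.19 after thinning, 0.16 within neighbours in CD150 rank, 0.31 in pool 1 and 0.27 without the 24 highest CD150 cells of each pool. Kit had 0.0023 within neighbours in Sca-1 rank and 0.58 without those CD150 cells. Flt3 had 0.20 within neighbours in CD150 rank and 0.27 in pool 1; Hlf had 0.17, 0.33 and, without the 24 highest CD150 cells, 0.15; Dach1 had -0.034 in pool 1. The S-phase median was -0.020 after thinning and -0.35 without the 24 highest CD150 cells, and that of ribosome biogenesis -0.025 within neighbours in CD150 rank and -0.048 without those cells. The granulocyte-monocyte median ran from -0.99 to -0.39, the lymphoid from -0.77 to -0.09 and the regulators' from 0.13 to 0.32. The causes were not tested. Blocks of Sca-1 and the removal of the top cell of a list were chosen after seeing the data. No paired analysis was possible because the labels give neither animals nor replicate numbers. Genes under 30 UMIs were not compared, and with 95 cells of 1 sample no interval covers animals.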

Other observations

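Immediate early genes, which growth factors and stress induce within minutes, had 3 of 7 measured members (42.9%, background 6.61%) called lower in cKit-higher cells (Ier3, Zfp36 and Junb), with a median log2 ratio of -0.47 (-0.43 and -0.56 in the pools). Over the 6 members of which no cell held more than 20% of the UMIs, 2 were called lower. Among 14 quiescence genes and Cdk inhibitors, 3 (21.4%, background 6.61%) were called lower, Cdkn1a (p21), Foxo1 and Klf6, with a list median of 0.01. Only 1 of these calls was left over the 12 members not held by 1 cell. Of 20 interferon-induced genes, 1 (5%, background 8.14%) was called higher, Irgm1, and 1 (5%, background 6.61%) lower, Rtp4. Over the 15 of them not held by 1 cell, 0 were called higher and 1 lower. The 84 cytosolic ribosomal protein genes had a median of -0.02, with 0 called in either direction. Y-linked genes summed to 319 and 195 UMIs, a log2 ratio of 0.32 (0.06 to 0.59).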
